A study of Rattus norvegicus with 6 samples.

Results

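The microRNAs (miRNAs) of the Dlk1-Dio3 imprinted region were followed in rat heart muscle after myocardial infarction (MI). Members were taken by the miRNA names printed on the array, and 86 of the 758 rat miRNAs on it belong to the set. MI and control arrays did not differ for any of them past an adjusted p of 0.05, and most of those with a measurable signal had nearly the same level in both groups. A smaller number of members varied widely between single arrays, with values of the groups that overlapped. Several of them shared an order in which an MI array was lowest and a control array highest, and others had other orders.

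Left ventricular myocardium was profiled on single-colour arrays, with 3 samples in each group. MI samples came from male rats aged 8 weeks whose left coronary artery was ligated, and whose hearts were taken at 24 h from animals in which the infarction was judged successful. Control samples came from male rats of the same age given the same operation without ligation, and carry a time of 0 h in the labels. Time after surgery and ligation therefore cannot be told apart. The labels do not say whether each sample is a separate animal or which zone of the ventricle was taken, so p-values reflect only how the deposited samples vary. In bulk tissue, fewer cells of a type and less RNA per cell cannot be told apart either.

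The Dlk1-Dio3 region is imprinted, meaning that its genes are read from a single parental copy of the chromosome. In mammals the protein genes Dlk1, Rtl1 and Dio3 are expressed from the paternal copy, while long noncoding RNAs that include Meg3, an RNA antisense to Rtl1, and Mirg are expressed from the maternal copy and carry the miRNA hairpins. The miRNAs of the region are best known from brain, placenta and developing or regenerating skeletal muscle. In mice, blocking miR-329, miR-487b, miR-494 or miR-495 increased vessel growth after loss of blood flow to a limb. A hairpin can give rise to a miRNA from either arm, named 5p and 3p, and bases 2 to 8 of the mature strand, the seed, largely decide which messenger RNAs it recognises.

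RefSeq held a mature sequence for 84 of the 86 members, and all 84 lie on chromosome 6 in assembly GRCr8, with 79 on the plus strand and 5 on the minus strand. Among these 84, 78 different seeds occur and only 5 seeds are held by more than 1 member, so few members share a seed. The first sequences are those of members whose values on each array are given in detail and that did not have the array order described further on, with the seed in capitals.
miR-494-3p: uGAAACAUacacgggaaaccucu
miR-487b-3p: aAUCGUACagggucauccacuu
miR-370-3p: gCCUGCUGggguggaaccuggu
miR-127-3p: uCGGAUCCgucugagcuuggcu
miR-376b-3p: aUCAUAGAggaacauccacuu
miR-134-5p: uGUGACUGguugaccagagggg
miR-134-3p: cUGUGGGCcaccuagucaccaa
miR-1188-5p: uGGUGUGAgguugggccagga
The next are those of members with MI 1 lowest and control 3 highest, again with the seed in capitals; their seeds are all different.
miR-337-3p: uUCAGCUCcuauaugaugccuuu
miR-434-3p: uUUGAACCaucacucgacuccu
miR-376a-3p: aUCGUAGAggaaaauccacgu
miR-329-3p: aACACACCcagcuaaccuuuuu
miR-300-3p: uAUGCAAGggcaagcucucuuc
miR-410-3p: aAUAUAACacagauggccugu
miR-495: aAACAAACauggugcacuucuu
Capitals in the last set mark a run of bases that a member shares with another or that pairs with it; whether a probe for a member also reads its relative was not tested. The capitals of miR-3544 are complementary to those of miR-337-5p, those of miR-299b-3p and miR-299a-3p are identical, and so are those of miR-539-5p and miR-496-5p.
miR-3544: AACUCCUGCAUGACGCCGuuccc
miR-337-5p: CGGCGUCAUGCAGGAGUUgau
miR-299b-3p: UAUGUGGGACGGUAAAC
miR-299a-3p: UAUGUGGGACGGUAAACcgcu
miR-539-5p: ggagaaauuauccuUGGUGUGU
miR-496-5p: agguuguccaUGGUGUGUuc

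Values are given as log2 signal, the brightness of a miRNA's probes after background subtraction and scaling of each array, so that a difference of 1 is 2-fold. Brightness depends on the probe, so amounts are compared between arrays for the same miRNA and never between different miRNAs. Each array carried 12128 spots for 1806 probes, no spot was saturated, and between 446 and 472 miRNAs were detected per array. The labelled tissue was checked against its markers. All 6 cardiac muscle miRNAs of the list, among them miR-208a-3p and miR-1-3p, were detected on every array, with a summed log2 signal of 18.55 to 18.64 on the MI arrays and 18.48 to 18.71 on the control arrays. The 5 leukocyte miRNAs were all detected as well, and their summed log2 signal ran from 14.00 to 14.45 on the MI arrays and from 13.88 to 14.07 on the control arrays. The array code in the file headers was the same for MI 1 and the 3 controls and different for MI 2 and MI 3. Control 3 had a scan of its own, while the other 5 arrays shared a scan.

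A miRNA was called detected where any of its probes was above background on most of its spots. By this measure 34 of the 86 members (39.5%) were detected on all 6 arrays, against 57.1% of all 758 miRNAs. Another 9 members were detected on some arrays, and 43 (50%) on none, against 272 of all miRNAs (35.9%). By the same measure neither strand was seen on any array for miR-154, miR-299a, miR-323, miR-369, miR-376c, miR-377, miR-380, miR-412, miR-485, miR-540 or miR-541. The scanner software's own detection flag did mark miR-376c-3p on 3 arrays, and miR-299a-5p, miR-323-3p and miR-369-5p on 1 array each. MI 1 had the fewest members detected, 34, and control 3 the most, 43. On the other 4 arrays the count was between 37 and 41.

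The undetected members lay mostly in the block from miR-379 to miR-410, a long run of hairpins that is processed from the noncoding RNA Mirg and known in rat neurons for its response to activity. Of its 62 members, 19 were detected on all 6 arrays and 36 on none. The block near Meg3, from miR-770 to miR-665, had 5 of 10 members detected on all arrays and 4 on none. The hairpins antisense to Rtl1 had 6 of 9 on all arrays and 2 on none. Of the 5 members in the block with miR-370, miR-341 and miR-1188, 4 were detected on all arrays and 1 on none. Detection also split by strand. Of 39 hairpins with both strands on the array, 14 had a strand detected on all arrays while its partner was detected on none, 8 of them with the 3p strand seen and 6 with the 5p strand. The 3p strand was the one seen for miR-127, miR-299b, miR-370, miR-376b, miR-381, miR-409a, miR-487b and miR-494. The 5p strand was the one seen for miR-379, miR-433, miR-493, miR-496, miR-539 and miR-758. Among the undetected partners, the scanner software's own flag marked miR-493-3p on 3 arrays and miR-376b-5p on 1.

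Testing required detection on all 3 arrays of MI, of control or of both, which 37 of the 86 members met and 49 did not. Of the 37, 3 passed through the control group alone (miR-329-3p, miR-337-3p and miR-376a-3p) and 0 through the MI group alone, so the 37 do not stand for the whole set. In limma, 0 of the 37 were higher and 0 were lower past an adjusted p of 0.05, while 2.45% of all 449 tested miRNAs were called, 1.78% as higher and 0.668% as lower. Without adjustment, p was under 0.05 for 1 member, miR-3544, against 13.6% of all tested miRNAs. The 3 MI values did not overlap with the 3 control values for 2 members, miR-3544 and miR-1188-5p, both higher after MI. Of all tested miRNAs, 20.7% had groups that did not overlap, 10.9% with MI higher and 9.8% with MI lower. Whether the shares of the members differ from these was not tested. On the arrays of the shared header code alone, MI 1 against the 3 controls, 5 members had an unadjusted p under 0.05, and with that code as a block 4 had, against 49 and 47 of all 449.

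The differences themselves were small. The median log2 fold change of MI over control was 0.02 for the 37 tested members and 0.02 for all 449 tested miRNAs, and 16 of the 37 (43.2%) lay below 0, against 45.2% of all. With the 3 members that passed through the control group alone left out, the median over 34 was 0.03 and 13 lay below 0. For 30 of the 37, the fold change was within 0.25 of 0 on the log2 scale, and for 7 it was larger. The lowest was -0.55 for miR-337-3p and the highest 0.48 for miR-134-5p. The smallest adjusted p of any member was 0.357.

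**Figure D1:**
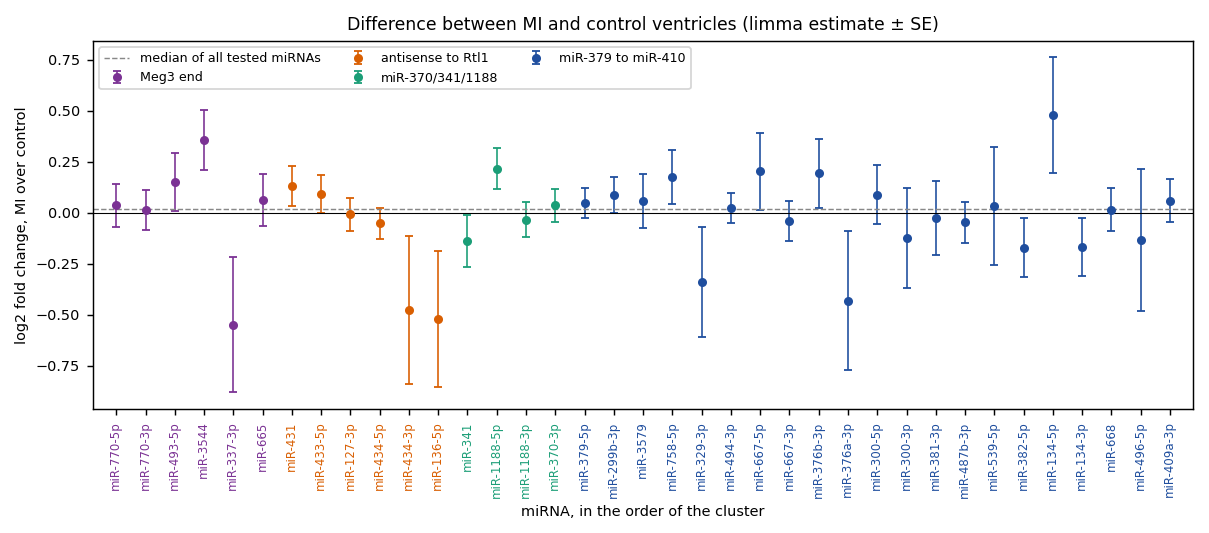
Log2 fold change of MI over control for each of the 37 tested cluster miRNAs, in the order of the cluster and coloured by block. Points are limma estimates, bars are standard errors and the dashed line is the median of all 449 tested miRNAs, 0.02; most points sit within 0.25 of 0, and the 5 lowest carry standard errors from 0.27 to 0.36.

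Among the members near Meg3, the strands of miR-770 and miR-493-5p had log2 fold changes of 0.15 or less, while miR-3544 and miR-337-3p gave the largest values of the block in opposite directions. For miR-770-5p the log2 signal was 8.04, 7.94 and 8.16 on the MI arrays and 8.19, 7.96 and 7.89 on the control arrays, a log2 fold change of 0.04 ± 0.11 (SE). Its partner miR-770-3p had a log2 fold change of 0.01 ± 0.10 (SE), and miR-493-5p 0.15 ± 0.14 (SE). The groups of all 3 overlapped.
miR-3544 lies on the opposite DNA strand to miR-337 and is complementary to miR-337-5p over 18 bases. It had log2 signals of 4.51, 4.56 and 5.01 on the MI arrays and 4.23, 4.35 and 4.43 on the control arrays. All 3 MI values were above all 3 control values, with a log2 fold change of 0.36 ± 0.15 (SE) and an adjusted p of 0.357. On the arrays of the shared header code alone, MI 1 against the 3 controls, its log2 fold change was 0.17. The partner it pairs with, miR-337-5p, was detected on no array.
miR-337-3p, from the other arm of that hairpin, had log2 signals of 3.63, 4.81 and 4.27 on the MI arrays and 4.65, 4.47 and 5.25 on the control arrays. It was detected on 2 MI arrays and 3 control arrays, the groups overlapped, and MI 1 was the lowest and control 3 the highest. The log2 fold change was -0.55 ± 0.33 (SE), with an adjusted p of 0.525. The remaining tested member of the block, miR-665, had a log2 fold change of 0.06 ± 0.13 (SE).

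The hairpins antisense to Rtl1 are fully complementary to the Rtl1 messenger RNA and in mice guide its cleavage. Of their 6 tested strands, 4 had a log2 fold change below 0 and 2 above, with a median of -0.03. For miR-127-3p the log2 signal was 7.81, 7.87 and 7.73 on the MI arrays and 7.79, 7.73 and 7.92 on the control arrays. These values lay within a narrow range and gave a log2 fold change of -0.01 ± 0.08 (SE). The partner miR-127-5p was detected on no array.
miR-431, known in mice from muscle stem cells, had a log2 fold change of 0.13 ± 0.10 (SE) and an adjusted p of 0.603. miR-433-5p stood at 0.09 ± 0.09 (SE).
The 2 members of this block that varied most were miR-136-5p and miR-434-3p. miR-136-5p had log2 signals of 5.39, 6.38 and 5.95 on the MI arrays and 6.23, 6.03 and 7.03 on the control arrays. miR-434-3p had 4.41, 5.54 and 5.04 on the MI arrays and 5.15, 5.15 and 6.10 on the control arrays. In both, MI 1 was the lowest array, control 3 the highest, and the other 4 lay between with the groups mixed. The log2 fold changes were -0.52 ± 0.33 (SE, adjusted p = 0.533) for miR-136-5p and -0.47 ± 0.36 (SE, adjusted p = 0.615) for miR-434-3p. The partner strand miR-434-5p did not show this order. Its log2 signal was 5.31, 5.26 and 5.31 on the MI arrays and 5.44, 5.24 and 5.35 on the control arrays, all within a narrow range.

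In the block with miR-370, miR-341 and miR-1188, the 4 tested strands had a median log2 fold change of 0.00. miR-370-3p had log2 signals of 9.16, 9.07 and 9.18 on the MI arrays and 9.20, 9.11 and 9.00 on the control arrays. Its groups overlapped, with a log2 fold change of 0.04 ± 0.08 (SE).
For miR-1188-5p the log2 signals were 4.73, 4.78 and 5.00 on the MI arrays and 4.51, 4.65 and 4.72 on the control arrays. The groups did not overlap, by a gap smaller than the spread within either group. The log2 fold change was 0.22 ± 0.10 (SE), the adjusted p 0.415, and on the arrays of the shared header code alone the fold change was 0.11. Its partner miR-1188-3p stood at -0.03 ± 0.09 (SE), and miR-341 at -0.14 ± 0.13 (SE).

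**Figure D2:**
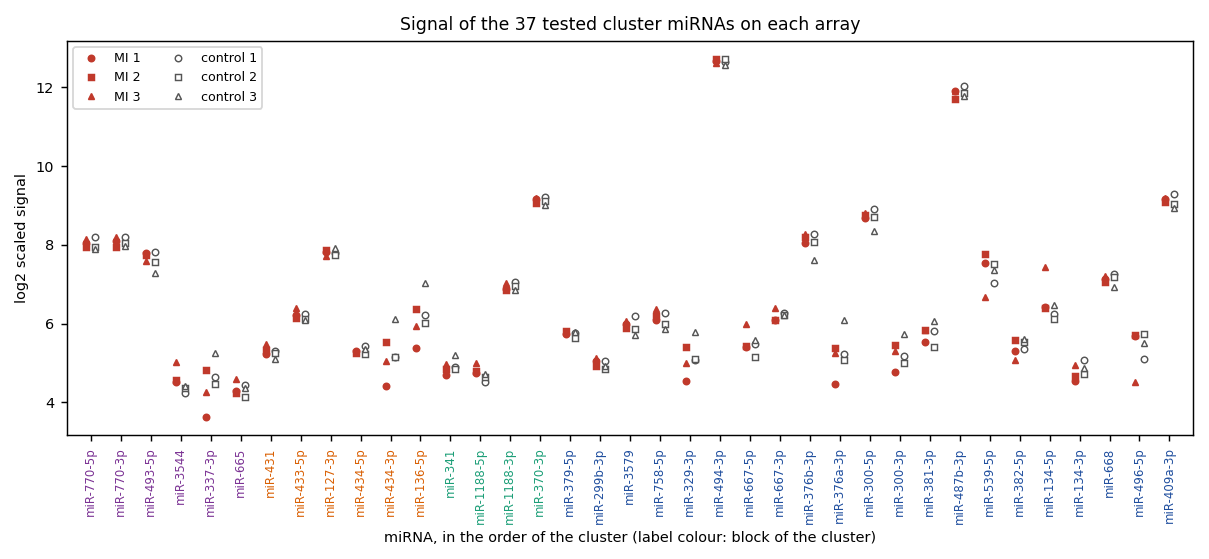
Log2 scaled signal of the 37 tested cluster miRNAs on each of the 6 arrays, with MI arrays filled and control arrays open, in the order of the cluster. Heights of different miRNAs are not comparable; the arrays lie close together for most members, while for miR-337-3p, miR-434-3p, miR-136-5p, miR-329-3p and miR-376a-3p MI 1 lies lowest and control 3 highest.

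The block from miR-379 to miR-410 had 21 tested strands, 9 of them below 0 and 12 above, with a median log2 fold change of 0.02. Several were close to identical on all 6 arrays. miR-494-3p, studied in mice for its part in cardiac ischaemia, had log2 signals of 12.67, 12.73 and 12.60 on the MI arrays and 12.65, 12.71 and 12.57 on the control arrays. Its SD within groups was 0.07 and its log2 fold change 0.02 ± 0.07 (SE).
miR-487b-3p had log2 signals of 11.90, 11.71 and 11.92 on the MI arrays and 12.04, 11.85 and 11.78 on the control arrays, a log2 fold change of -0.05 ± 0.10 (SE). miR-409a-3p stood at 0.06 ± 0.11 (SE) and miR-668 at 0.01 ± 0.11 (SE). In each of these the groups overlapped.
miR-134-5p, which in rat hippocampal neurons limits the size of dendritic spines, had the highest fold change of the set. Its log2 signals were 6.43, 6.40 and 7.43 on the MI arrays and 6.24, 6.12 and 6.47 on the control arrays. Only MI 3 stood above the rest, and control 3 lay above MI 1 and MI 2. The log2 fold change was 0.48 ± 0.28 (SE), with an adjusted p of 0.525. It was 0.14 without MI 3 and 0.15 on the arrays of the shared header code alone. miR-758-5p, with a log2 fold change of 0.17 ± 0.13 (SE) and an adjusted p of 0.608, also had overlapping groups.

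The related miR-376a-3p and miR-376b-3p, whose seeds are similar but not the same, moved differently between arrays. miR-376a-3p had log2 signals of 4.46, 5.39 and 5.26 on the MI arrays and 5.23, 5.09 and 6.08 on the control arrays. miR-376b-3p had 8.05, 8.21 and 8.28 on the MI arrays and 8.27, 8.07 and 7.62 on the control arrays. Control 3 was thus the highest array for miR-376a-3p and the lowest for miR-376b-3p. The log2 fold changes were -0.43 ± 0.34 (SE, adjusted p = 0.621) for miR-376a-3p, which was detected on 2 MI arrays and 3 control arrays, and 0.19 ± 0.17 (SE, adjusted p = 0.653) for miR-376b-3p. The strands of the miR-300 hairpin were likewise opposed on control 3. miR-300-5p had log2 signals of 8.67, 8.75 and 8.80 on the MI arrays and 8.90, 8.70 and 8.35 on the control arrays. miR-300-3p had 4.78, 5.45 and 5.31 on the MI arrays and 5.18, 4.99 and 5.74 on the control arrays. Control 3 was the lowest array for the 5p strand and the highest for the 3p strand.

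The order with MI 1 lowest and control 3 highest, described here after the values were seen, recurred across blocks. It was found in 12 of the 43 members detected on any array (27.9%), against 57 of all 486 such miRNAs (11.7%), and in 7 of the 37 tested members (18.9%), against 44 of all 449 (9.8%). Of the 7, miR-329-3p, miR-337-3p and miR-376a-3p passed the filter through the control group alone. Of the 12, miR-410-3p and miR-543-3p were detected on a control array and on no MI array. These shares therefore depend in part on the filter and are not a test. The 12 were miR-136-3p, miR-136-5p, miR-300-3p, miR-329-3p, miR-337-3p, miR-341, miR-376a-3p, miR-410-3p, miR-411-3p, miR-434-3p, miR-495 and miR-543-3p. Of these, 3 are antisense to Rtl1, 1 is near Meg3, 1 belongs to the block of miR-370 and 7 to the block from miR-379 to miR-410. The median deviation of the 12 from their own mean over 6 arrays was -0.73, 0.21 and -0.15 on MI 1, MI 2 and MI 3, and 0.07, -0.14 and 0.71 on controls 1, 2 and 3. Over the other 30 tested members the median deviation lay between -0.09 and 0.11 on every array. The 12 were chosen for being lowest on MI 1 and highest on control 3, so their contrast on those arrays follows from the choice.

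**Figure D3:**
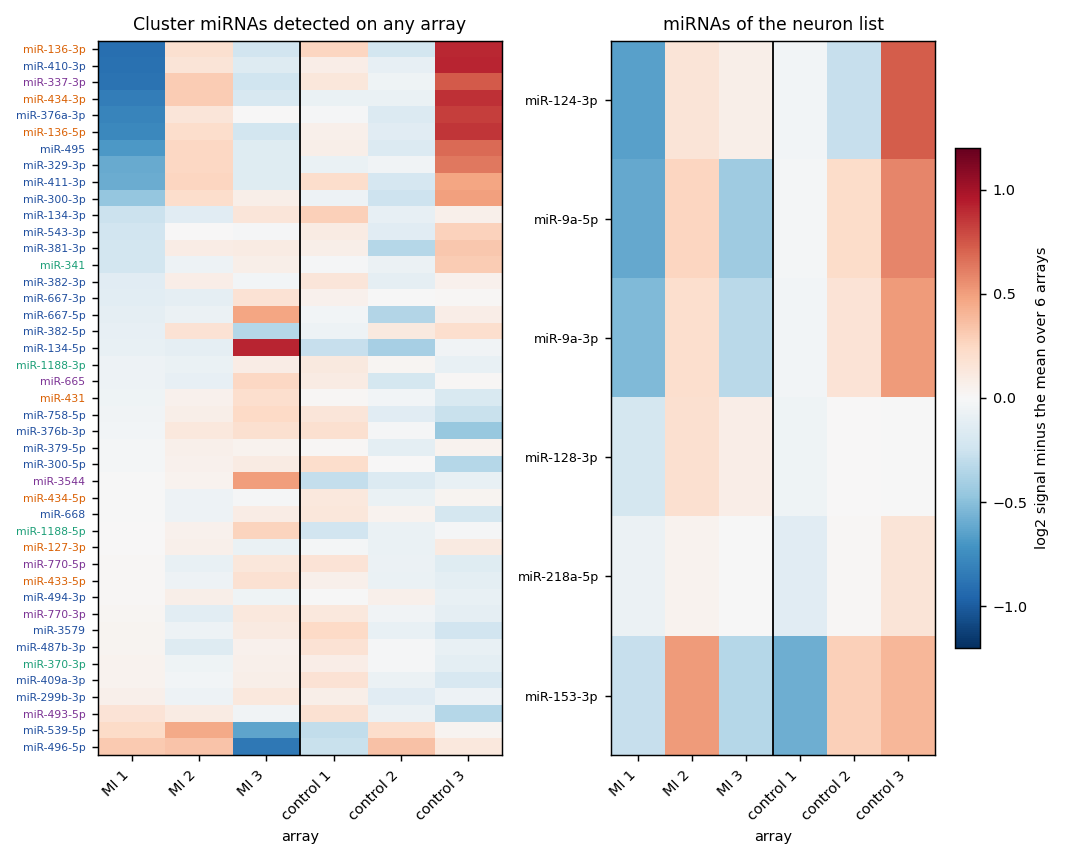
Log2 signal minus the miRNA's own mean over the 6 arrays, for the 43 cluster miRNAs detected on any array (left, sorted by MI 1, label colours give the block) and for the 6 miRNAs of the neuron list (right); the black line parts the MI arrays from the control arrays. The upper rows on the left are blue on MI 1 and red on control 3, as are miR-124-3p, miR-9a-5p and miR-9a-3p on the right, while the lower rows on the left are mostly pale on those 2 arrays.

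miR-329-3p, with log2 signals of 4.54, 5.40 and 5.01 on the MI arrays and 5.07, 5.11 and 5.78 on the control arrays, was another of the 12. It was detected on 2 MI arrays and 3 control arrays, and its log2 fold change was -0.34 ± 0.27 (SE, adjusted p = 0.624). miR-136-3p, the partner of miR-136-5p, was too dim to be tested, being detected on 1 MI array and 2 control arrays. It had log2 signals of 3.31, 4.41 and 3.99 on the MI arrays and 4.47, 4.00 and 5.12 on the control arrays. miR-495 was detected on 1 MI array and 2 control arrays as well, and miR-411-3p on 2 arrays of each group. miR-382-3p, the remaining member detected on some arrays only, was seen on 2 arrays of each group and did not have the order. miR-410-3p and miR-543-3p were each detected on 1 control array and no MI array.

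These members were picked for that order, so their fold changes must shrink when either of the 2 arrays is left out, and the following values only describe by how much. Without MI 1, the log2 fold changes of miR-337-3p, miR-136-5p, miR-434-3p, miR-376a-3p and miR-329-3p were -0.25, -0.27, -0.18, -0.14 and -0.12. Without control 3, which leaves the 5 arrays of the shared scan, they were -0.32, -0.22, -0.16, -0.12 and -0.11. On the arrays of the shared header code alone, which sets MI 1 against the 3 controls, they were -1.16, -1.04, -1.06, -1.01 and -0.78. That comparison has a single MI array, the lowest one for each of these members, and its spread comes from the controls alone. The same 5 had log2 fold changes of -0.03 to -0.15 with another background correction, normexp, which adds an offset of 50 to every signal.

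Several measures were also lowest on MI 1 and highest on control 3, and their part in this order was not tested. The total number of miRNAs detected was lowest on MI 1, 446, and highest on control 3, 472. It was 466 on MI 2, 468 on MI 3, 458 on control 1 and 447 on control 2, so control 2 was close to MI 1. Of the 6 miRNAs on a list of neuron markers, 3 had the same order, namely miR-124-3p, miR-9a-5p and miR-9a-3p. miR-9a-5p had log2 signals of 7.24, 8.11 and 7.42 on the MI arrays and 7.83, 8.07 and 8.43 on the control arrays. miR-124-3p, an abundant miRNA of neurons, had 3.54, 4.35 and 4.27 on the MI arrays and 4.16, 3.92 and 4.92 on the control arrays, and was detected on 5 arrays. The summed log2 signal of the whole neuron list was 10.54 to 10.97 on the MI arrays and 10.73 to 10.97 on the control arrays. miR-128-3p, miR-218a-5p and miR-153-3p did not have that order, and none of the 6 passed the threshold between the groups. No miRNA of the lists for cardiac muscle, endothelium, smooth muscle and fibroblasts, erythroid cells or leukocytes had the order.

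Of all 449 tested miRNAs, 15 had this order with a range over 0.9 on the log2 scale, a cut also chosen after the values were seen. They were 6 of the 37 tested members and 9 of the 412 other tested miRNAs, which describes the list and is not a test. The 9 were miR-9a-5p, miR-9a-3p, miR-124-3p, miR-137-3p, miR-204-5p, miR-338-3p, miR-384-5p, miR-3099 and miR-3593-5p. Over the 6 arrays, miR-136-5p had a Pearson correlation above 0.9 with 5 of the other 36 tested members. These were miR-300-3p, miR-329-3p, miR-337-3p, miR-376a-3p and miR-434-3p, at 0.92, 0.98, 0.98, 0.98 and 0.99. With 19 of the 36 the correlation was below 0, the lowest being -0.75 with miR-370-3p. Outside the set, 16 of 412 tested miRNAs were above 0.9, among them miR-137-3p at 0.98 and miR-124-3p at 0.95. The 5 members share MI 1 lowest and control 3 highest with miR-136-5p, and so do miR-137-3p and miR-124-3p. Their high correlations follow in part from that shared order and add no separate evidence. These are descriptions of 6 shared arrays, which also share their scaling.

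**Figure D4:**
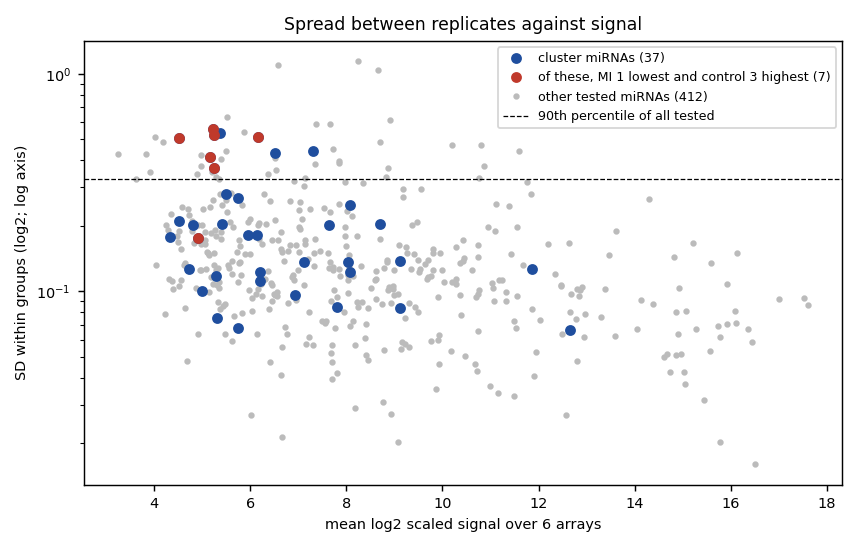
SD within groups, pooled over both groups and on a log axis, against the mean log2 signal over the 6 arrays, for the 37 tested cluster miRNAs and all other tested miRNAs. The dashed line is the 90th percentile of all tested miRNAs, 0.33, and 9 cluster miRNAs lie above it, 6 of them drawn in red for having MI 1 lowest and control 3 highest.

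The median SD within groups was 0.18 over the tested members and 0.13 over all tested miRNAs, and 9 of 37 members (24.3%) were above the 90th percentile of all, 0.33. Tested members also had a lower signal on the array as a set, with a median mean log2 signal of 5.95 against 7.71 over all tested miRNAs. This is brightness, which depends on the probes, and does not compare amounts of miRNA. The part of signal level in this spread was not tested. Of the 9, miR-329-3p, miR-337-3p and miR-376a-3p passed the filter through the control group alone. The median share of G and C bases was 40.9% in the 11 members with a sequence and the order of MI 1 lowest and control 3 highest, and 56.1% in the 30 tested members without that order, a difference that was not tested. Over members detected on no array it was 48.9%.

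The other 3 members with a spread above that percentile had other orders. miR-134-5p was high on MI 3, as given above. miR-539-5p had log2 signals of 7.54, 7.77 and 6.69 on the MI arrays and 7.02, 7.52 and 7.35 on the control arrays. miR-496-5p had 5.69, 5.72 and 4.51 on the MI arrays and 5.10, 5.73 and 5.50 on the control arrays. Both were lowest on MI 3, next lowest on control 1, and had a Pearson correlation of 0.97 over the 6 arrays. They share a run of 8 bases (UGGUGUGU, in capitals in their sequences) that no other of the 84 members holds, while their seeds differ. The log2 fold change was 0.03 ± 0.29 (SE) for miR-539-5p and -0.13 ± 0.35 (SE) for miR-496-5p.

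Other members are related in sequence to a member that was not detected. miR-299b-3p was detected on all 6 arrays, with a log2 fold change of 0.09 ± 0.09 (SE), and its whole length of 17 bases is contained in miR-299a-3p, which was detected on none. miR-3579 is complementary to miR-380-5p over 21 bases and was detected on all arrays, while miR-380-5p was detected on none. The reverse held for miR-409b, complementary to miR-409a-3p over 20 bases and detected on no array. Of the 5 shared seeds, AUACAAG is held by miR-381-3p and miR-539-3p, AUGUGGG by miR-299a-3p and miR-299b-3p, and GGUUGUC by miR-410-5p, miR-494-5p and miR-496-5p. In each of these a single member was detected. The seeds GGUUUAC, of miR-299a-5p and miR-299b-5p, and UGGAUAU, of miR-376b-5p and miR-376c-5p, belong to members that were detected on no array.

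For 6 hairpins both strands were detected on all arrays, so the ratio of the 3p to the 5p strand could be compared between the groups. With 3 arrays against 3, the smallest p an exact permutation test can give is 0.1. The log2 ratio of miR-134-3p to miR-134-5p was -1.89, -1.74 and -2.47 on the MI arrays and -1.15, -1.41 and -1.60 on the control arrays. The groups did not overlap, with a difference of -0.65 (exact two-sided permutation p = 0.1, 0.6 after Benjamini-Hochberg adjustment over 6 hairpins). It was -0.43 without MI 3, and -0.24 with normexp. The strand miR-134-3p alone had log2 signals of 4.54, 4.66 and 4.95 on the MI arrays and 5.09, 4.71 and 4.87 on the control arrays. For the other 5 hairpins the groups overlapped, with differences of -0.42 (miR-434), -0.25 (miR-1188), -0.24 (miR-667), -0.21 (miR-300) and -0.02 (miR-770), and exact p between 0.2 and 0.8. All 6 differences were below 0, though that of miR-300 was 0.16 without control 3.

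Neighbouring miRNAs whose numbers the selection leaves out added little signal. Of 8 such strands, from miR-544, miR-666, miR-673 and miR-1193, only miR-666-5p was detected, on 1 MI array and 1 control array. A further 6 found between members by their RefSeq position were detected on no array. Other imprinted loci were also without a call between the groups. Of 9 strands of miR-296, miR-298, miR-335, miR-483 and miR-675, 5 were tested and 0 passed the threshold, with log2 fold changes from -0.04 to 0.13 and adjusted p from 0.525 to 0.985. Among these, miR-335, from an intron of the imprinted gene Mest, had log2 signals of 8.21, 8.28 and 8.09 on the MI arrays and 8.23, 8.05 and 7.96 on the control arrays.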

How the data were processed

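Scanner files of the 6 arrays were used. The submitters' processing notes name Agilent Feature Extraction 11.0.1.1 for spot quantification. Deposited spot intensity is linear and already background-subtracted, per the file headers, and other deposited columns hold 0 or 1 flags. A table of log2 values made by the authors, with the same median in every column, served as an alternative. Groups follow the time in the labels.

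Outlier spots (8.32% to 9.63% per array) were dropped and each probe's spots averaged. Probes counted as detected if more than 50% of spots carried the software's flag for signal well above background. Scaling used the 75th percentile of 885 probes detected on every array, probes were summed per miRNA, and a floor of 5.14 was applied before log2. Groups were compared in limma 3.58.1 (R 4.3.3; lmFit, eBayes, no covariate, leaving 4 residual degrees of freedom), with Benjamini-Hochberg adjustment over all 449 miRNAs that met the detection filter. The steps were tested on simulated data. Precision is limited by the number of arrays.

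The members, lists and rules were chosen with earlier results of these data known. The rule names the 12 members with the highest mean signal, the 8 with the smallest p, the 5 with the largest change and their partner strands. Members outside it, including those of the array order and the sequence pairs, were chosen after their values were seen. Names are those of the array. The files name another build than the RefSeq table, so no coordinates are given. Alternatives covered scaling, background correction, probe summary, filters, floor, detection, blocks and single replicates.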

Additional observations from a re-analysis of the deposited data

How the results depend on the processing

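No tested member (34 to 86 by the filter) passed the threshold under any of the 23 alternatives, and the smallest adjusted p of a named member was 0.236, for miR-134-3p with the authors' processed values. The call counts over all miRNAs ran from 3 to 13. Of 733 fold changes of 32 named members under these alternatives, 646 kept their direction and 87 turned, in 20 members. Direction held in the other 12 under every alternative that tested them, among them miR-136-5p, miR-337-3p, miR-434-3p, miR-134-5p, miR-3544 and miR-1188-5p. Those listed were named for a small p in these same data, so a kept direction adds no separate evidence. The median fold change of the tested members was -0.053 with the 75th percentile over all probes, -0.070 with median scaling, -0.047 with no scaling and -0.066 with the software's total signal, where 26, 29, 26 and 25 members lay below 0. With normexp 6 lay below 0, and with no filter 37 of 86. The cause was not tested. Of members with groups that did not overlap there were 0 to 3, and of tested members with MI 1 lowest and control 3 highest 3 (normexp) to 8. In the main setting, 20.7% of all tested miRNAs had groups that did not overlap and 9.8% had that order. The shares of all miRNAs under the alternatives are not given here, so these counts only describe the members.

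The fold changes that turned were the following, on the log2 scale. With the 75th percentile over all probes the fold change was -0.040 for miR-370-3p and miR-770-5p, -0.016 for miR-409a-3p, -0.053 for miR-494-3p, -0.044 for miR-539-5p, -0.061 for miR-668, -0.064 for miR-770-3p and -0.017 for miR-3579. With median scaling it was -0.0045 for miR-300-5p, -0.056 for miR-370-3p, -0.033 for miR-409a-3p, -0.070 for miR-494-3p, -0.061 for miR-539-5p, -0.077 for miR-668, -0.081 for miR-770-3p, -0.057 for miR-770-5p, -0.034 for miR-3579 and -0.0038 for miR-299b-3p. With quantile normalization it was -0.048 for miR-370-3p, -0.013 for miR-539-5p and miR-770-5p, -0.0075 for miR-668 and -0.039 for miR-770-3p. With no scaling it was -0.034 for miR-370-3p and miR-770-5p, -0.010 for miR-409a-3p, -0.047 for miR-494-3p, -0.038 for miR-539-5p, -0.055 for miR-668, -0.058 for miR-770-3p and -0.011 for miR-3579. With the software's total signal it was -0.045 for miR-370-3p and miR-770-5p, -0.021 for miR-409a-3p, -0.059 for miR-494-3p, -0.076 for miR-539-5p, -0.066 for miR-668, -0.069 for miR-770-3p and -0.023 for miR-3579. With the authors' processed values it was -0.022 for miR-539-5p, -0.095 for miR-668, -0.055 for miR-770-3p and -0.0070 for miR-770-5p. With normexp it was 0.0088 for miR-127-3p, 0.012 for miR-1188-3p, 0.020 for miR-134-3p, 0.015 for miR-300-3p and miR-341, 0.030 for miR-434-5p, 0.031 for miR-381-3p, 0.032 for miR-496-5p and 0.0033 for miR-382-5p. With the brightest probe it was 0.0060 for miR-1188-3p. With the mean of log2 values over probes it was -0.0019 for miR-494-3p. With the array code as a block, or on the arrays of the shared code alone, it was 0.00091 for miR-127-3p, 0.014 for miR-487b-3p and 0.25 for miR-496-5p.

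With single replicates left out, log2 fold changes ran from -0.049 to 0.044 for miR-127-3p, -0.064 to 0.21 for miR-300-5p, -0.017 to 0.085 for miR-370-3p, -0.023 to 0.16 for miR-409a-3p, -0.10 to 0.027 for miR-487b-3p, -0.016 to 0.056 for miR-494-3p, -0.19 to 0.35 for miR-539-5p and -0.085 to 0.087 for miR-668. They ran from -0.047 to 0.077 for miR-770-3p, -0.027 to 0.12 for miR-770-5p, -0.087 to 0.016 for miR-1188-3p, -0.28 to 0.093 for miR-300-3p, -0.21 to 0.13 for miR-381-3p, -0.34 to 0.26 for miR-496-5p, -0.045 to 0.19 for miR-3579 and -0.40 to 0.16 for the strand ratio of miR-300. Such a fit leaves 2 arrays in a group.

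Replicate numbers are shared between the groups, but same-numbered samples deviated together only weakly (correlations of 0.12, -0.04 and 0.11 over 449 miRNAs). The labels give no pairing, and such correlations cannot settle whether the numbers pair the samples. With the replicate block, 0 members passed, the median fold change was 0.02, miR-3544 had an adjusted p of 0.287, and 3 of all tested miRNAs were called, against 11 without it.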

Other observations

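miR-381-3p had log2 signals of 5.52, 5.83 and 5.84 on the MI arrays and 5.81, 5.40 and 6.06 on the control arrays, a log2 fold change of -0.03 ± 0.18 (SE). miR-382-5p had a log2 fold change of -0.17 ± 0.14 (SE), with control 3 highest and MI 3 lowest. miR-379-5p, the first hairpin of its block, had an SD within groups of 0.07, with log2 signals of 5.73, 5.81 and 5.79 on the MI arrays and 5.76, 5.63 and 5.79 on the control arrays. The erythroid miRNAs miR-451-5p and miR-144-3p, which are not members, had log2 fold changes of 0.36 ± 0.18 and 0.35 ± 0.21 (SE), and miR-223-3p of leukocytes 1.45 ± 0.29 (SE), with an adjusted p of 0.0619 in limma. Among the other leukocyte miRNAs, miR-142-3p stood at 0.21 ± 0.12, miR-142-5p at 0.06 ± 0.12 and miR-155-5p at 0.19 ± 0.10 (SE). miR-150-5p went the other way, at -0.21 ± 0.09 (SE), with all its MI values below all its control values. No leukocyte miRNA of the list passed the threshold.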
